A study of Mus musculus with 6 samples.

Results

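The Kit ligand axis and mast cell genes were described as a set of 10 genes, chosen by symbol from the 24062 genes counted in the series. They comprise the ligand Kitl, its receptor Kit, the granule proteases Cpa3, Cma1, Mcpt4, Tpsb2 and Tpsab1, the IgE receptor chains Fcer1a and Ms4a2, and the histamine-forming enzyme Hdc. All 10 were among the 15652 genes that passed a filter on low counts and were tested. The series held 6 bulk RNA-seq libraries of mouse dorsal root ganglion (DRG) and neurofibroma tissue. A group of 3 came from Nf1fl/fl;DhhCre mice, and a group of 3 carried Runx1fl/fl;Runx3fl/fl;Nf1fl/fl;DhhCre and was labelled double knockout (DKO). The comparison set RNA levels in the DKO group against those in the Nf1fl/fl;DhhCre group.

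The labels gave a mixed C57BL/6 and 129 background for both groups, DRG as the tissue of the Nf1fl/fl;DhhCre group and neurofibroma tumor as that of the DKO group, so tissue label and genotype cannot be told apart. The genotype field of the DKO group leaves out Nf1fl/fl, which the protocol and methods give. Age and sex were not given for these animals, nor whether tissue of several mice was pooled. DhhCre deletes floxed alleles in Schwann cells and their precursors, so mast cells, other leukocytes and neurons should keep intact Nf1, Runx1 and Runx3. Deletion was not measured by cell type in these libraries. The limma-voom p-values compare the group difference with the spread of libraries within the groups (3 and 3), with variances moderated across genes.

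Mast cells are tissue-resident immune cells that mature from blood-borne progenitors and store proteases and histamine in granules. Kit ligand, made by Schwann cells, fibroblasts and endothelial cells among others, binds the receptor tyrosine kinase Kit on mast cells and promotes their recruitment and survival, and this axis has long been studied in neurofibromas, where mast cells are common. Kit is also found outside mast cells, among them melanocytes and some sensory neurons, whereas the proteases and the IgE receptor beta chain are far more restricted.

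None of the 10 genes changed past both thresholds, an adjusted p below 0.05 (limma-voom, Benjamini-Hochberg over all genes tested) and a change over 2-fold. The counts were 0 lower and 0 higher in the DKO libraries, against 5.36% of all tested genes lower and 8.03% higher. At an unadjusted p below 0.05, limma-voom had 2 of the 10 (Kit and Fcer1a), edgeR's quasi-likelihood test the same 2, and DESeq2 had 3 (with Cma1 added), against 35.2%, 35.9% and 38.8% of all genes tested. None of the 10 had an adjusted p below 0.05 with edgeR or DESeq2. The fitted change was negative in 8 of the 10 and positive in 2 (Kit and Tpsab1), with a median log2 fold change of -0.49 against 0.015 over all genes tested. The groups did not overlap for 1 of the 10 that was lower (Fcer1a) and 1 that was higher (Kit), where 20.5% and 21.8% of all tested genes were lower or higher without overlap.

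Total counts ran from 12439296 to 16682194 per library, and 3 counts, the limit that a count of 0 allows, corresponded to 0.179 to 0.247 counts scaled to library size (CPM). The DKO libraries carried more sensory neuron RNA (22 of 23 marker genes rose) and less leukocyte RNA (7 of 10 fell) than the Nf1fl/fl;DhhCre libraries. Among all tested genes 8.03% rose and 5.36% fell. Skeletal muscle markers summed to 3203 CPM in Nf1fl/fl;DhhCre library 2 and 13863 CPM in DKO library 2, against 11.2 to 93.8 CPM in the other 4. Runx1 was not reduced in DKO library 3, at 185 CPM against 131 to 172 CPM in the Nf1fl/fl;DhhCre libraries and 78.9 and 84.0 CPM in DKO libraries 2 and 1. Results without that library are given beside each of the 10 genes, and its label is kept as deposited.

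Regulatory and coding sequences of some of the 10 genes are shown first. RefSeq (GRCm38.p6) had a promoter window, 250 bases before to 50 after the start site, for 8 of the 10 genes. The windows of Cpa3, the protease with the highest group means, and Fcer1a, which was lower without overlap, are printed. Both hold a match to the letters of the RUNX motif TGTGGT and of the GATA motif AGATAA. Each is 250 bases upstream of the start site, 5′ to 3′ on the gene's own (minus) strand, and capitals mark motif matches.
Cpa3, chr3:20242182-20242431: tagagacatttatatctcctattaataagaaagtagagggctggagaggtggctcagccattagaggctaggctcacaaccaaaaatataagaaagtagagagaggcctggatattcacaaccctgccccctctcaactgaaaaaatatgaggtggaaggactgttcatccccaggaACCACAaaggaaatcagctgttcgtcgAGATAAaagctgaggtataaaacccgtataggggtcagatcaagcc
Fcer1a, chr1:173227230-173227479: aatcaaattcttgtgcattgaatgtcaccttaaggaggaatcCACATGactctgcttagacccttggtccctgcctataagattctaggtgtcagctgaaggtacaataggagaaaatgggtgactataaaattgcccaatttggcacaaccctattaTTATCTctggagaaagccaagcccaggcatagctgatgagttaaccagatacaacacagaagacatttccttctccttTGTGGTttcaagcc

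The RUNX motif searched was TGTGGT. In the Cpa3 window the capitals mark its reverse complement, 73 bases before the start site, and the GATA motif AGATAA, 46 bases before it. The Fcer1a window holds TGTGGT 14 bases before the start site, AGATAA in reverse complement 92 bases before it and CATGTG, an E-box of the kind bound by MITF, in reverse complement 208 bases before it. TGTGGT, read on both strands, was found in the windows of 4 of the 8 genes (Cpa3, Cma1, Mcpt4 and Fcer1a), against 16.8% of all 32851 promoter windows, and AGATAA in 3 (Cpa3, Fcer1a and Ms4a2), against 11.2%. TGCGGT, the other RUNX form searched, matched in 1 (Ms4a2), against 6.45%, and CATGTG in 1, against 14.2%. None of these letters occurred in the windows of Kit, Kitl and Hdc. No motif searched overlapped another in these matches, which are descriptions of the sequence and not of binding.

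The tryptase genes Tpsb2 and Tpsab1 lie beside each other on chromosome 17 and encode closely related enzymes, so their closest coding stretch is printed to show how far reads can tell them apart. Over 800 aligned coding bases they were identical at 608 (76.0%), with a longest identical run of 39 bases and no shared stretch of 50 bases. The window spans 90 coding bases, 724 to 813 of Tpsb2 and 826 to 915 of Tpsab1 counted from the first coding base, and capitals mark the 6 bases that differ.
Tpsb2: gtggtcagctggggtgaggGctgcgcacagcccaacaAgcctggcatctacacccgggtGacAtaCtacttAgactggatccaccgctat
Tpsab1: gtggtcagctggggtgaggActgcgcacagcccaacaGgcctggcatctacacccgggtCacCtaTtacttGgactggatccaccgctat

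Kitl, the ligand (chr10:100015630-100100416, plus strand, GRCm38), had the highest group means of the 10 per kilobase of exon, although Cpa3 exceeded it in Nf1fl/fl;DhhCre library 1 and DKO library 1. It measured 94.95, 64.6 and 81.5 CPM in Nf1fl/fl;DhhCre libraries 1 to 3 and 70.4, 60.8 and 54.5 CPM in DKO libraries 1 to 3. Means were 80.3 ± 15.2 and 61.9 ± 8.02 CPM (SD, n = 3 each). DKO library 1 lay above Nf1fl/fl;DhhCre library 2, so the groups overlapped. The log2 fold change was -0.37 (SE 0.18, 95% interval -0.80 to 0.07, limma-voom adjusted p = 0.202), which bounds any fall at 1.74-fold, and it was -0.27 without DKO library 3.

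Kit, the receptor (chr5:75574916-75656722, plus strand), had a positive fitted change. It measured 39.8, 23.8 and 41.4 CPM in the Nf1fl/fl;DhhCre libraries and 49.5, 48.4 and 64.2 CPM in the DKO libraries, with means of 35.0 ± 9.71 and 54.1 ± 8.83 CPM (SD, n = 3 each). All 3 DKO libraries were above all 3 Nf1fl/fl;DhhCre libraries, and Nf1fl/fl;DhhCre library 2 stood lowest. The log2 fold change was 0.67 (SE 0.24, 95% interval 0.10 to 1.24), with a limma-voom p of 0.0274 and an adjusted p of 0.0956, so it did not pass the test. It was 0.54 without DKO library 3, 0.45 without Nf1fl/fl;DhhCre library 2, and 0.50 without both muscle-rich libraries.

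Ligand and receptor had fitted changes of opposite sign, and their ratio did not overlap between groups. Kitl exceeded Kit by 2.39, 2.71 and 1.97 times in CPM in the Nf1fl/fl;DhhCre libraries and by 1.42 and 1.25 times in DKO libraries 1 and 2, whereas in DKO library 3 it was 0.849 times Kit. The ratio averaged 2.35 ± 0.37 against 1.18 ± 0.30 (SD, n = 3 each). The ratio was examined after the values of both genes were known and is a description with no test.

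**Figure D1:**
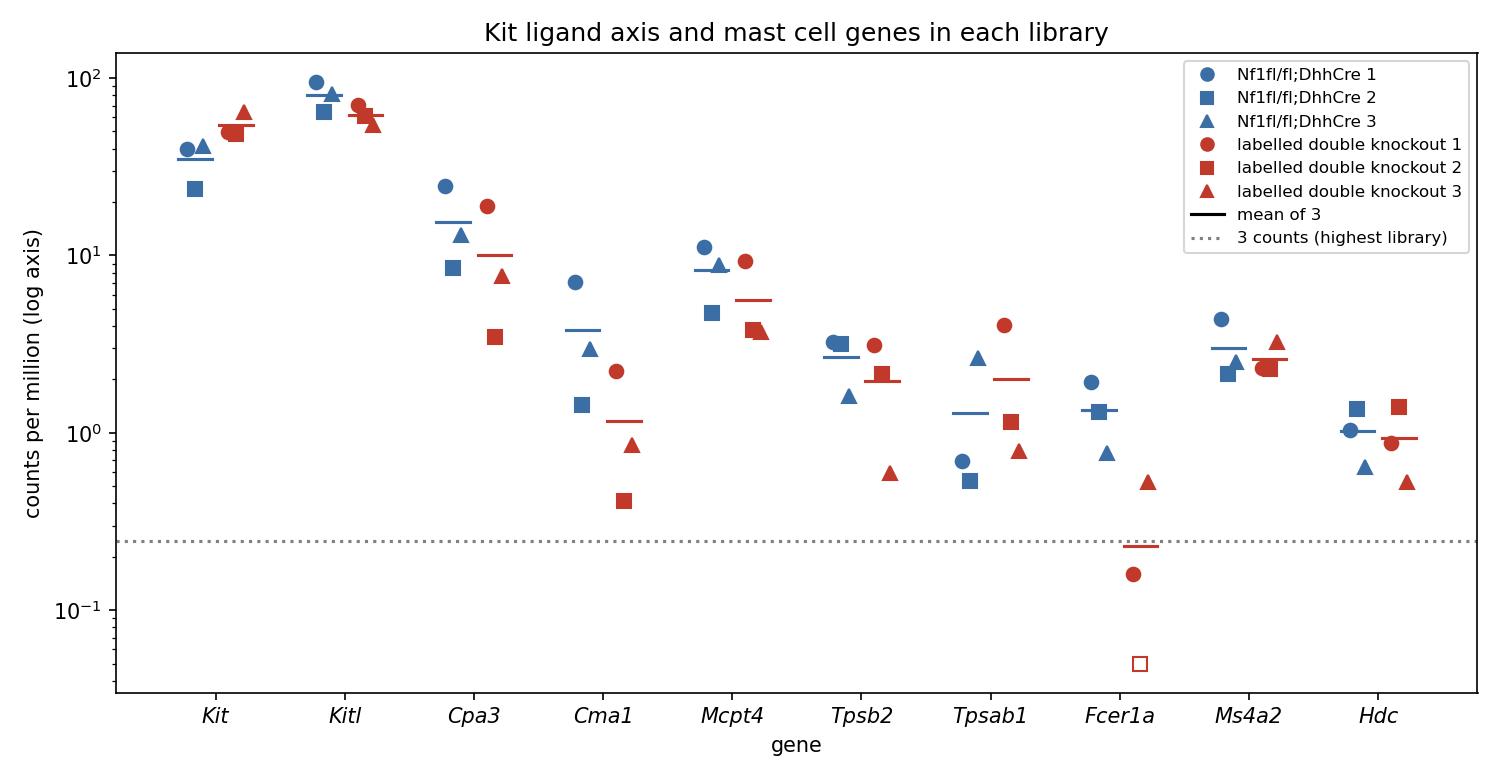
CPM (log axis) of each of the 10 genes in the 3 Nf1fl/fl;DhhCre libraries (blue) and the 3 libraries labelled double knockout (red); symbols give the library number, horizontal lines the mean, and the open symbol a count of 0 drawn at the foot of the axis. Kit is higher in all 3 DKO libraries, Fcer1a is lower in all 3, and the groups overlap for the other 8 genes.

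Both genes were also set against markers of cells known to make them, as a log2 difference within each library. Kit stood 0.83, -0.99 and 1.03 from the mean log2 CPM of 23 sensory neuron genes in the Nf1fl/fl;DhhCre libraries and -1.01, -1.32 and -1.73 in the DKO libraries. Kit was thus lower relative to neuron genes in the DKO libraries, with a mean difference of -1.64, while its CPM was higher. Kitl relative to 13 Schwann cell genes averaged -0.74 ± 0.33 in Nf1fl/fl;DhhCre and -1.47 ± 0.34 in DKO libraries, a difference of -0.72, and relative to 10 fibroblast genes it averaged -2.60 ± 0.20 and -1.97 ± 0.26, a difference of 0.63 (SD, n = 3 each). The direction for Kitl thus depended on the cell type chosen as the base. Each of these 3 differences separated the groups, for Kit only narrowly (-0.993 in Nf1fl/fl;DhhCre library 2, -1.005 in DKO library 1). In a two-sided exact permutation test of the libraries p was 0.1 (0.125 after Benjamini-Hochberg adjustment over 5 such differences). With 3 against 3 libraries p cannot be smaller than 0.1, so this test cannot decide them. The base lists moved between groups too, with median log2 fold changes of 2.38 (sensory neuron), 0.10 (Schwann cell) and -1.15 (fibroblast). Whether neuron content had a part in the higher Kit was not tested.

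Melanocytes, another Kit-bearing cell of the neural crest, were read by 8 genes, of which 2 passed the filter and none was called. Dct ran from 0 to 0.192 CPM. Tyr ran from 64.9 to 86.1 CPM over all 6 libraries, with a log2 fold change of -0.23 (limma-voom adjusted p = 0.243). Pmel, the other gene tested, ran from 1.91 to 5.90 CPM (-0.55, limma-voom adjusted p = 0.446). Tyrp1, Mlana, Oca2, Slc45a2 and Trpm1 reached at most 0.726 CPM in any library. Tyr thus stood apart from the rest of the list and gives no melanocyte level by itself.

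Cpa3, the mast cell carboxypeptidase (chr3:20215620-20242181, minus strand), had the highest group means of the granule proteases, although Mcpt4 exceeded it in DKO library 2. It measured 24.6, 8.52 and 13.1 CPM in the Nf1fl/fl;DhhCre libraries and 19.0, 3.45 and 7.66 CPM in the DKO libraries. The spread among DKO libraries, 5.49-fold from lowest to highest, was wider than the difference between the means of 15.4 ± 8.30 and 10.03 ± 8.02 CPM (SD, n = 3 each). DKO library 1 ranked second of all 6, above Nf1fl/fl;DhhCre libraries 2 and 3. The log2 fold change was -0.78 (SE 0.62, 95% interval -2.23 to 0.67, limma-voom adjusted p = 0.409), from -1.31 without DKO library 1 to -0.23 without DKO library 2, and it was -0.74 without DKO library 3.

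Cma1 (chr14:55941451-55944675, minus strand), a mast cell granule protease, had the most negative fitted change among the proteases. It measured 7.07, 1.43 and 2.95 CPM in the Nf1fl/fl;DhhCre libraries and 2.23, 0.411 and 0.858 CPM in the DKO libraries. DKO library 1 again lay inside the Nf1fl/fl;DhhCre range, and DKO libraries 2 and 3 lay below it. Its log2 fold change was -1.64 (SE 0.89, 95% interval -3.73 to 0.44, limma-voom adjusted p = 0.231), and -1.56 without DKO library 3.

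Mcpt4 (chr14:56059629-56062313, minus strand), the chymase of connective tissue mast cells, measured 11.2, 4.77 and 8.79 CPM in the Nf1fl/fl;DhhCre libraries and 9.24, 3.78 and 3.70 CPM in the DKO libraries. Its order of libraries resembled that of Cpa3, with Nf1fl/fl;DhhCre library 1 highest and DKO library 1 next. Its log2 fold change was -0.61 (SE 0.47, 95% interval -1.72 to 0.50, limma-voom adjusted p = 0.401), and -0.35 without DKO library 3.

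Tpsb2 (chr17:25366305-25369098, plus strand), a tryptase secreted from mast cell granules, measured 3.26, 3.16 and 1.60 CPM in the Nf1fl/fl;DhhCre libraries and 3.11, 2.14 and 0.594 CPM in the DKO libraries. The log2 fold change was -0.75 (SE 0.65, limma-voom adjusted p = 0.457) and rested on DKO library 3, without which it was 0.030. Tpsab1 (chr17:25343245-25345562, minus strand), its neighbour, measured 0.694, 0.536 and 2.63 CPM against 4.06, 1.15 and 0.792 CPM. Its highest value was in DKO library 1, and the log2 fold change of 0.58 (SE 0.84, limma-voom adjusted p = 0.662) became -0.048 without that library and 1.13 without DKO library 3. RefSeq lists Tpsab1 as a transcribed pseudogene in the C57BL/6J reference where GENCODE M21 lists a protein-coding gene. The coding sequences shared no stretch of 50 bases, but untranslated parts were not compared. How reads shared by both tryptases were counted is not stated in the sources used here, so the split between them is uncertain.

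Fcer1a (chr1:173221284-173227214, minus strand) encodes the IgE-binding alpha chain of the high-affinity IgE receptor. It had 28, 22 and 12 counts (1.94, 1.31 and 0.770 CPM) in the Nf1fl/fl;DhhCre libraries and 2, 0 and 8 counts (0.159, 0 and 0.528 CPM) in the DKO libraries. Every DKO library was below every Nf1fl/fl;DhhCre library. The mean CPM, 1.34 ± 0.587 against 0.229 ± 0.271 (SD, n = 3 each), was 5.85-fold lower in the DKO libraries. The fitted log2 fold change was -2.92 (SE 1.03, 95% interval -5.33 to -0.51), with a limma-voom p of 0.0239 and an adjusted p of 0.0875. All 3 Nf1fl/fl;DhhCre libraries and 0 DKO libraries exceeded the filter's cutoff of 0.691 CPM, so the gene was tested only through the group where it was high, and the count of 0 in DKO library 2 allows up to 0.247 CPM. Without both muscle-rich libraries, DKO library 2 among them, its log2 fold change was -1.83 (limma-voom adjusted p = 0.287), and without DKO library 3 it was -3.81 (0.112).

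Ms4a2 (chr19:11615523-11623719, minus strand), the beta chain that amplifies the receptor's signal, overlapped between groups. It measured 4.37, 2.14 and 2.502 CPM in the Nf1fl/fl;DhhCre libraries and 2.31, 2.30 and 3.23 CPM in the DKO libraries. The DKO values lay within the Nf1fl/fl;DhhCre range, and DKO library 3, the lowest of its group for Mcpt4 and both tryptases, was the highest here. Its log2 fold change was -0.10 (SE 0.40, 95% interval -1.04 to 0.84, limma-voom adjusted p = 0.884), and -0.28 without DKO library 3. Whether the alpha and beta chains differed in their change was not tested. The gamma chain Fcer1g, which macrophages and other myeloid cells also use, fell from 99.9, 67.4 and 182 CPM to 20.2, 7.65 and 18.2 CPM (log2 fold change -2.89, limma-voom adjusted p = 0.0139).

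Hdc (chr2:126593667-126619299, minus strand), which makes histamine from histidine, was the least abundant per kilobase of exon. It measured 1.04, 1.37 and 0.641 CPM in the Nf1fl/fl;DhhCre libraries and 0.877, 1.398 and 0.528 CPM in the DKO libraries, nearly the same range in both groups. A log2 fold change of -0.20 was fitted (SE 0.60, 95% interval -1.60 to 1.20, limma-voom adjusted p = 0.850), and its sign turned, to 0.18, without DKO library 3.

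**Figure D2:**
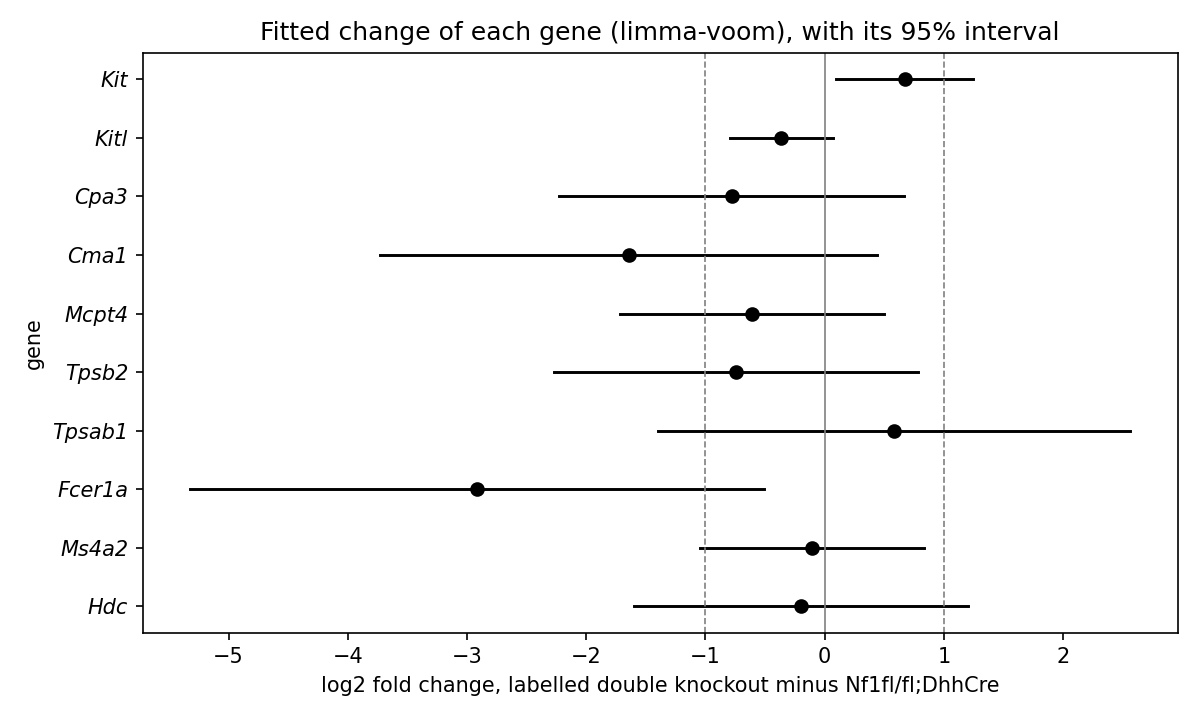
Fitted log2 fold change of each of the 10 genes (point) and its 95% interval (line) from limma-voom, 3 DKO minus 3 Nf1fl/fl;DhhCre libraries; dashed lines mark 2-fold. The intervals are not adjusted for the number of genes. Those of Kit and Fcer1a leave out 0, on opposite sides, but the limma-voom adjusted p were 0.0956 and 0.0875. Fcer1a was tested only through the group where it was high. The interval of Kitl is the narrowest.

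Compared per kilobase of exon, the mean levels in the Nf1fl/fl;DhhCre libraries ran in the order Kitl (13.6 CPM per kb), Cpa3 (10.2), Mcpt4 (7.44), Kit (3.93), Cma1 (3.50), Tpsb2 (1.68), Fcer1a (1.34), Ms4a2 (1.07), Tpsab1 (0.614) and Hdc (0.159). In the DKO libraries Kit was the third, at 6.07, behind Kitl at 10.5 and Cpa3 at 6.61, and Fcer1a was next to last at 0.230. Neighbours such as Kitl and Cpa3, Cpa3 and Mcpt4, Kit and Cma1, or Fcer1a and Ms4a2 differed in mean by less than the larger of their SDs in the Nf1fl/fl;DhhCre libraries. Lengths were summed over all annotated exons of a gene, and the isoforms used in these tissues were not measured.

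The 8 genes other than Kit and Kitl were summed as a view of mast cell RNA in each library. They came to 54.2, 23.2 and 33.0 CPM in the Nf1fl/fl;DhhCre libraries and 41.0, 14.6 and 17.9 CPM in the DKO libraries. DKO library 1 lay among the Nf1fl/fl;DhhCre libraries and the other two lay below them. Cpa3 supplied 23.6% of these counts in DKO library 2 and 36.7% to 46.3% in the other 5. The groups overlapped in this sum, and its difference was not tested. In bulk tissue, the number of mast cells and the RNA per mast cell cannot be told apart.

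The mean levels of the leukocyte and mast cell lists were then read side by side, and whether the lists differed in their change was not tested. The mean log2 CPM of 10 pan-leukocyte genes was 5.91, 5.05 and 6.61 in the Nf1fl/fl;DhhCre libraries and 3.57, 2.53 and 3.93 in the DKO libraries, whereas that of the 8 mast cell genes was 1.93, 1.10 and 1.38 against 1.39, 0.14 and 0.47. DKO library 1 had the highest mast cell level of its group and an intermediate leukocyte level. Cpa3 relative to the pan-leukocyte mean was -1.29, -1.96 and -2.90 in the Nf1fl/fl;DhhCre libraries and 0.68, -0.73 and -0.99 in the DKO libraries, a mean difference of 1.70 without overlap (two-sided exact permutation p = 0.1; 0.125 adjusted). The pan-leukocyte list itself fell (median log2 fold change -2.51), and p cannot go below 0.1 here, so the test cannot decide this difference. The same difference for Fcer1a was -0.44 (exact permutation p = 0.6, 0.6 adjusted). Fcer1a was tested only through the group where it was high. Its value in DKO library 2, with a count of 0, is set by the prior count, so no conclusion is drawn from this difference.

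**Figure D3:**
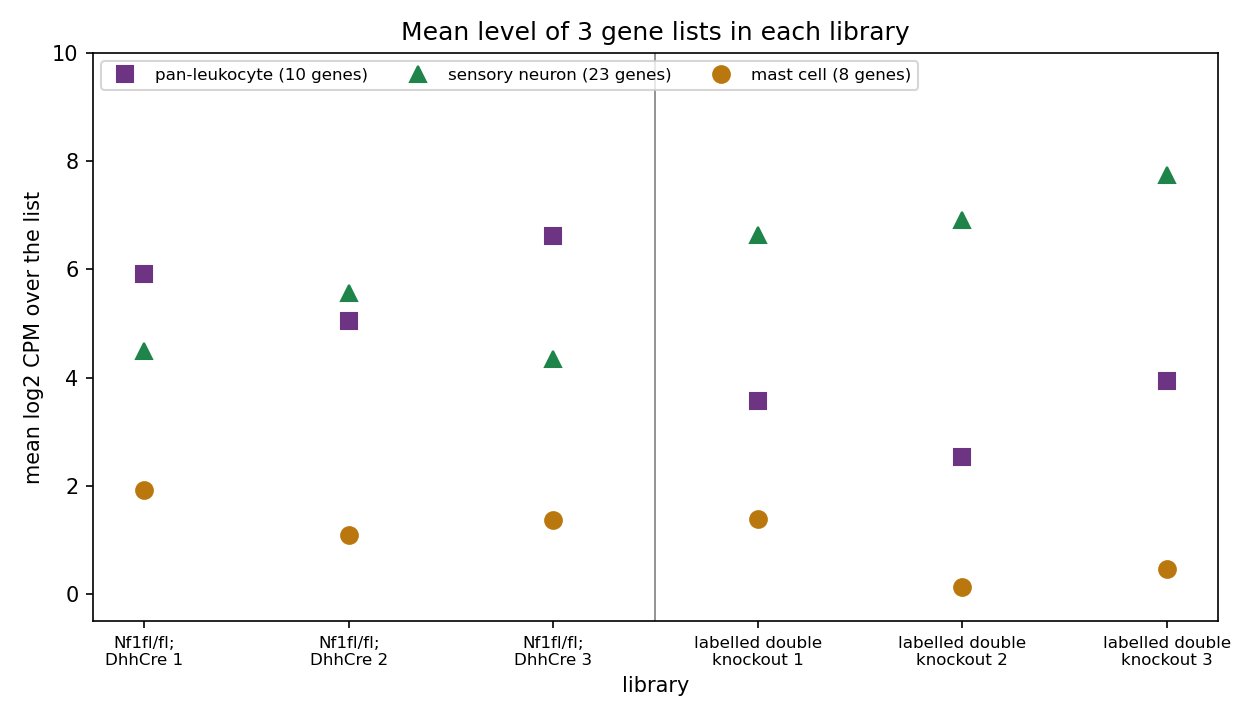
Mean log2 CPM of 10 pan-leukocyte genes (squares), 23 sensory neuron genes (triangles) and the 8 mast cell genes (circles) in each of the 6 libraries. Leukocyte levels sit at 5.05 to 6.61 in Nf1fl/fl;DhhCre and 2.53 to 3.93 in DKO libraries, while the mast cell level of DKO library 1, 1.39, falls within the Nf1fl/fl;DhhCre range of 1.10 to 1.93.

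Of 18 other mast cell genes, 12 were tested, 2 fell and 0 rose, with a median log2 fold change of -0.92. For all tested genes the shares were 5.36% lower and 8.03% higher. Both that fell are shared with other cells, Hpgds, the prostaglandin D synthase that macrophages also express (log2 fold change -2.05, limma-voom adjusted p = 0.0438), and Srgn, the granule proteoglycan core of many leukocytes (-1.30, 0.0168). Hpgds passed in 1 and Srgn in 3 of the 6 fits without a single library. The mast cell receptors Mrgprb1 and Mrgprb2 had log2 fold changes of -0.75 and -0.87 (limma-voom adjusted p = 0.403 and 0.443). Gata2, a transcription factor of the mast cell lineage, had -0.97 (limma-voom adjusted p = 0.102). Mcpt2, a mucosal mast cell protease, was not tested and was uneven between libraries, at 4.02, 0 and 4.49 CPM in the Nf1fl/fl;DhhCre libraries and 0.0797, 0 and 0 CPM in the DKO libraries. The count that fell was 6 without Nf1fl/fl;DhhCre library 2, 0 without Nf1fl/fl;DhhCre library 1 or 3 or DKO library 2, 1 without DKO library 1 or 3, and 4 with DESeq2. Calls over all tested genes moved in the same fits. Those lower, 839 in the main fit, were 181, 1028 and 498 without Nf1fl/fl;DhhCre libraries 1, 2 and 3. They were 577, 326 and 473 without DKO libraries 1, 2 and 3, and 1236 with DESeq2.

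Basophils share the IgE receptor and Hdc with mast cells, and their markers were read together with those of eosinophils. Only 2 of 7 genes could be tested, of which 1 was called lower, where 5.36% of all tested genes were lower. The basophil proteases Mcpt8 and Prss34 reached at most 1.01 and 0.417 CPM in any library. Ccr3, a chemokine receptor of eosinophils, measured 10.3, 2.44 and 6.93 CPM in the Nf1fl/fl;DhhCre libraries and 0 in all 3 DKO libraries, where a count of 0 allows 0.198 to 0.247 CPM. It was tested only through the group where it was high, and its call (limma-voom adjusted p = 0.0196) was lost when any 1 library other than Nf1fl/fl;DhhCre library 2 was left out. Siglecf, the other gene tested and a lectin of eosinophils that the files list as Siglec5, measured 8.39, 1.13 and 4.81 CPM against 1.91, 2.47 and 0.660 CPM, and the groups overlapped (log2 fold change -1.28, limma-voom adjusted p = 0.389). The eosinophil granule genes Epx and Prg2 were not tested and overlapped as well, at up to 0.536 and 1.32 CPM.

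Among 29 tested genes of signalling below Kit, 7 fell and 0 rose, with a median log2 fold change of -0.54. This compares with 5.36% lower and 8.03% higher of all tested genes. Those with the largest falls were Ptpn6, a phosphatase that restrains Kit (log2 fold change -2.31), the Src-family kinase Lyn (-1.98), the phospholipase Plcg2 (-1.80) and the kinase Btk (-1.72), with limma-voom adjusted p from 0.0121 to 0.0497. Ptpn6, Plcg2 and Btk each passed in 1 of 6 fits without a single library and Lyn in 5, whereas the adaptor Gab2 (-1.14) and the Ras pathway inhibitor Spred1 (-1.20) passed in all 6. Ptpn6 also belongs to the pan-leukocyte list, and Lyn, Plcg2, Btk and Gab2 are counted again in the IgE receptor list; the part of leukocyte RNA in these falls was not tested. The adaptors Grb2 and Shc1, common to most cells, had -0.20 and 0.16 (limma-voom adjusted p = 0.603 and 0.528). The count was 2 without Nf1fl/fl;DhhCre library 1 and 3 without Nf1fl/fl;DhhCre library 3 or any 1 DKO library. Lower calls over all tested genes dropped too, from 839 to 181 and 498 without Nf1fl/fl;DhhCre libraries 1 and 3. Without DKO libraries 1, 2 and 3 they were 577, 326 and 473.

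Of 21 tested genes of signalling below the IgE receptor, 14 fell and 0 rose, with a median of -1.80, where 5.36% of all tested genes fell. Fcgr2b, the inhibitory IgG receptor, had -2.82, Alox5ap, which serves leukotriene synthesis, -2.57, and the exchange factor Vav1 -2.42 (limma-voom adjusted p = 0.0148, 0.0251 and 0.0334). Syk, the kinase recruited by the gamma chain, had -2.17 (limma-voom adjusted p = 0.0335). With single libraries left out, Alox5ap and Vav1 each passed in 1 of 6 fits, Syk in 2, and Fcgr2b and Fcer1g in 5, whereas Gab2, the lipid phosphatase Inpp5d (-2.40) and the cyclooxygenase Ptgs1 (-1.94) passed in all 6. Macrophages also express most of these, and 10 of 13 macrophage genes fell, with a median of -2.16; the part of macrophage RNA in the list was not tested. The IgE list had 3 that fell without Nf1fl/fl;DhhCre library 1, 7 without Nf1fl/fl;DhhCre library 3, and 8, 6 and 6 without DKO library 1, 2 or 3. The macrophage list had 1 without Nf1fl/fl;DhhCre library 1, 5 without DKO library 2 and 8 without DKO library 3. In the same fits, lower calls over all tested genes dropped from 839 to 181 and 498 without Nf1fl/fl;DhhCre libraries 1 and 3. Without DKO libraries 1, 2 and 3 these calls were 577, 326 and 473.

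Growth factors and receptors of mast cells other than Kit were lower in 8 of 15 tested and higher in 1, with a median of -1.32. Shares of all tested genes were 5.36% lower and 8.03% higher. Tslp, an epithelial and stromal cytokine, measured 0.902, 1.37 and 0.834 CPM in the Nf1fl/fl;DhhCre libraries and 0.0797, 0.164 and 0.0660 CPM in the DKO libraries, which is 1 or 2 counts per DKO library. It was tested only through the group where it was high, and its call (log2 fold change -2.97, limma-voom adjusted p = 0.0346) was lost whichever library was left out. The alarmin Il33, which activates mast cells, fell from 140, 112 and 115 CPM to 68.1, 45.0 and 45.0 CPM (-1.24, 0.0115), and its receptor Il1rl1 had -1.34 (limma-voom adjusted p = 0.193). Tgfbr1 had -1.63 (limma-voom adjusted p = 0.0127). Kitl, with -0.37, lay outside this list and did not pass the test. The 8 became 1 without Nf1fl/fl;DhhCre library 1, 4 without Nf1fl/fl;DhhCre library 3 or DKO library 3, and 2 without DKO library 2. All tested genes called lower, 839 in the main fit, numbered 181 and 498 without Nf1fl/fl;DhhCre libraries 1 and 3. They numbered 326 and 473 without DKO libraries 2 and 3.

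Histamine handling showed 1 change, a rise, among 5 tested genes (median 0.036), where 8.03% of all tested genes rose. Hnmt, which inactivates histamine by methylation, rose from 4.58, 2.62 and 2.44 CPM to 8.69, 10.6 and 7.39 CPM (log2 fold change 1.51, limma-voom adjusted p = 0.0231). When any single library was dropped, it passed in 1 of 6 fits. The receptor Hrh1 had 0.036 and Hrh2 had -0.79 (limma-voom adjusted p = 0.960 and 0.374).

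**Figure D4:**
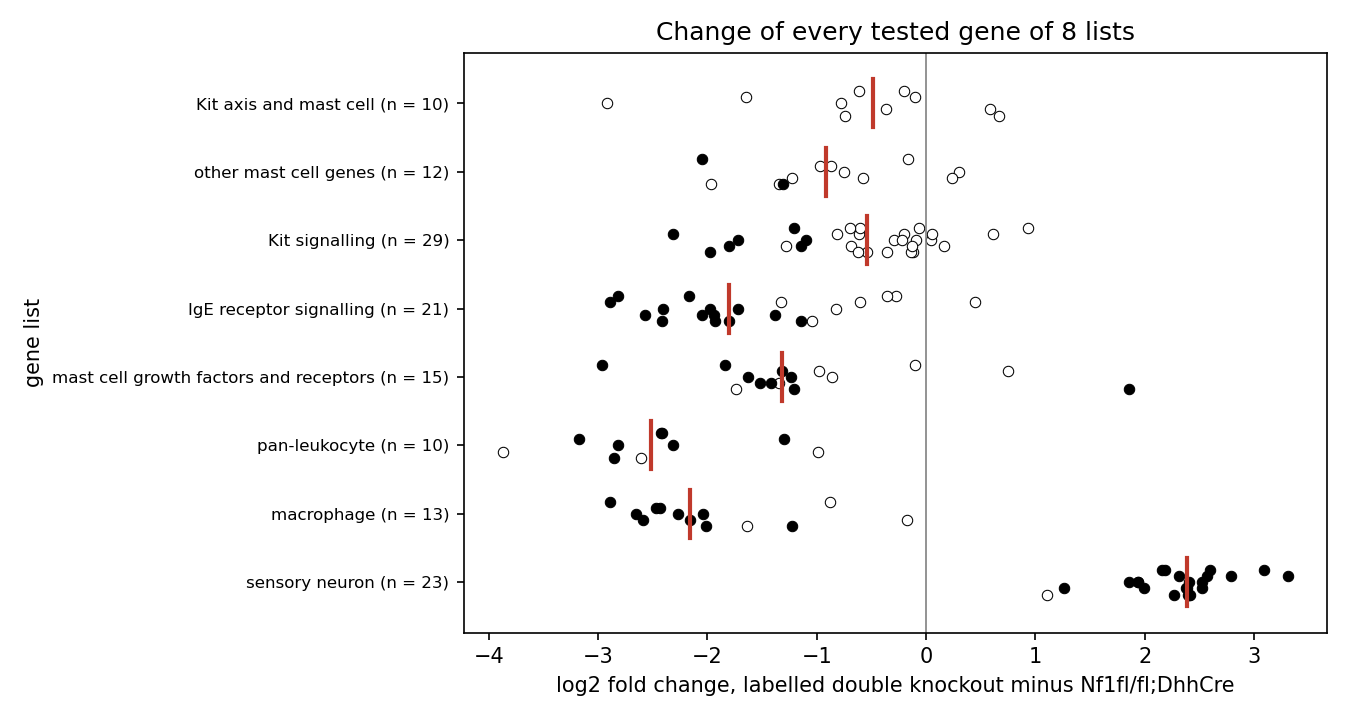
Log2 fold change (DKO minus Nf1fl/fl;DhhCre) of every tested gene in 8 lists; filled points passed both thresholds, and red bars are medians. None of the 10 Kit axis and mast cell genes is filled, 14 of 21 IgE receptor signalling genes are filled below 0, and 22 of 23 sensory neuron genes are filled above 0.

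The remaining cell type lists place these values, beside 5.36% of all tested genes lower and 8.03% higher. Schwann cell genes had 4 of 13 higher and 0 lower (median 0.10), with S100b at 1.52, and fibroblast genes had 6 of 10 lower (median -1.15), Postn at -2.15 and Lum at -1.66 among them. The fibroblast count was 1 without Nf1fl/fl;DhhCre library 1, 3 without DKO library 2 and 2 without both muscle-rich libraries. None of 10 endothelial genes and 12 skeletal muscle genes was called, with medians of 0.54 and 1.28. In the pan-leukocyte list the median was -2.51, and Ptprc, which encodes CD45, fell from 298, 159 and 542 CPM to 41.6, 18.2 and 44.6 CPM (log2 fold change -3.17, limma-voom adjusted p = 0.0132). In the sensory neuron list the median was 2.38 and Mrgprd rose most (3.31, limma-voom adjusted p = 0.00598). Without Nf1fl/fl;DhhCre library 1, the neuron count was 2 of 23 and the leukocyte count 0 of 10. They were 10 and 4 without Nf1fl/fl;DhhCre library 3, the leukocyte count was also 4 without DKO library 1 or 2, and without DKO library 3 they were 19 and 5, and without both muscle-rich libraries 21 and 9. Calls over all tested genes (839 lower, 1257 higher) were 181 and 181 without Nf1fl/fl;DhhCre library 1, and 498 and 535 without its library 3. Without DKO libraries 1, 2 and 3 they were 577 and 1304, 326 and 692, and 473 and 1122. Both muscle-rich libraries left out gave 719 and 1033.

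The genes whose pattern over the 6 libraries was most like each of these were sought among 10219 candidates, by the root mean square difference of centred log2 CPM. Nearest to Kit were Plekha7 (0.097), Zfyve19 (0.101) and Tiam1 (0.113). Nearest to Kitl were Dtx2 (0.061), Nedd1 (0.063) and Csgalnact2 (0.067), and nearest to the mean of the 8 mast cell genes was Plxdc1 (0.138), followed by A730098P11Rik (0.171) and D930048N14Rik (0.181). The patterns themselves spanned 1.43, 0.80 and 1.79 log2 units. None of these 9 was a gene of the mast cell lists.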

How the data were processed

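Amplified RNA was sequenced paired-end by the authors, aligned with TopHat to mm10 and counted with featureCounts. The deposited values are raw counts per gene symbol, and the annotation, strandedness and treatment of multimapping reads are not given in the sources used here. From these counts, filterByExpr (minimum count 10, total 15) left 15652 genes, which were TMM-scaled and tested by limma-voom (limma 3.58.1, edgeR 4.0.16, R 4.3.3) on genotype alone, with Benjamini-Hochberg adjustment. A gene was called at an adjusted p below 0.05 with over 2-fold change, as in the study's methods. CPM used TMM-scaled library sizes and log2 CPM a prior count of 0.5. The fit was tested on simulated data. Named genes were the 10 and, drawn from each other list, up to 4 called and the first 2 genes, and the 3 nearest patterns. Some others (Syk, Gata2, Mcpt2, Il1rl1, Hrh1, Hrh2, Il33, Gab2, Spred1, Inpp5d, Ptgs1, Siglecf, Epx, Prg2, Pmel, Tyrp1, Mlana, Oca2, Slc45a2, Trpm1) were named after their values were seen. The 10 genes and the lists were chosen with earlier results of these data known. Files carried Adgre1 and Siglecf under the older symbols Emr1 and Siglec5. Libraries of 1 group differed by 22.8 to 142 times the sampling noise (chi-square per degree of freedom), so none was a copy. Titles and file headers disagree on mouse numbers within each genotype, and by its description 1 DKO library (2 or 3) came from another sequencing run. Positions and exon lengths are from GENCODE M21. As alternatives, DESeq2 1.42.0 and edgeR's quasi-likelihood test were run, with other scalings and filters, sample quality weights and leaving out each library. A few genes of the lists are counted but not reported here by name.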

Additional observations from a re-analysis of the deposited data

How the results depend on the processing

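Under 15 alternatives the 10 genes kept 0 calls higher, and 0 lower in all but sample quality weights and an unadjusted p, each with 1 (Fcer1a; log2 fold change -3.40 and limma-voom adjusted p = 0.0488 with weights). Adjusted p of Fcer1a ran from 0.0488 to 0.287 and of Kit from 0.0757 to 0.226. Leaving out 1 library at a time, the count stayed at 0 to 0 in both directions, Kit ran from 0.45 to 0.85, Kitl from -0.47 to -0.21, Cpa3 from -1.31 to -0.23, Cma1 from -2.18 to -1.05, Mcpt4 from -0.99 to -0.34 and Fcer1a from -3.81 to -1.88, with no change of sign. Signs turned for Tpsb2 (-1.23 to 0.030, turned without DKO library 3), Tpsab1 (-0.048 to 1.29, turned without DKO library 1), Ms4a2 (-0.28 to 0.21, turned without Nf1fl/fl;DhhCre library 1 or DKO library 1) and Hdc (-0.52 to 0.18, turned without Nf1fl/fl;DhhCre library 2 or DKO library 3); the cause was not tested. Over all genes, 839 lower and 1257 higher became 181 and 181 without Nf1fl/fl;DhhCre library 1. The filter on CPM above 1 left out Fcer1a. Leaving out both muscle-rich libraries was chosen after seeing the data. Fcer1a and Hdc had under 30 counts in every library, and whether depth limited their fits was not tested. No paired analysis was possible because replicate numbers were given in accession order and pair no libraries.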
